A study of Mus musculus with 7 samples.

Results

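KC_Five is a cluster of keratinocytes from mouse epidermis, named as the authors named it in the cell annotation they deposited. It is called cycling here by its genes. All cells that carry this cluster name were taken, and no cell was added or removed. The cluster held 272 of 5426 keratinocytes, 156 from the BMT library (bone marrow transplantation) and 116 from the library whose label adds T-cells, called BMT + T cells. It was compared with KC_Four, the other cycling cluster (225 and 150 cells), and with Basal (1684 and 1712 cells). Among keratinocytes the authors' paper describes a cycling cluster, by Mki67, and a cluster of putative stem cells, by Cdc20. Its text does not tie either to the names KC_Four and KC_Five. The clusters had been made from the same RNA values, so differences between them describe how the cells were divided and were not tested.

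The study follows how the epidermis is repopulated by monocyte-derived cells after transplantation, and the keratinocytes were collected as the surroundings in which this happens. Both libraries came from the epidermis of male CD45.2 C57BL/6 hosts whose marrow was replaced by transplantation from female donors, and both were taken 3 weeks after it. The labels give T-cells to the hosts of only the BMT + T cells library, whereas the series' design text has all recipients given CD4 and CD8 T cells, so the libraries were compared by label. Cells negative for CD45, the leukocyte surface protein, were sorted and profiled by droplet sequencing from the 5′ end, which counts each captured transcript once as a unique molecular identifier (UMI). With 1 library for each label, a difference between labels cannot be told apart from a difference between libraries or host animals, and no p-value is given.

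Epidermis renews itself from keratinocytes of its basal layer, which make the keratins Krt5 and Krt14, divide, and move outward as they differentiate. A dividing cell copies its DNA in S phase with the replication machinery and histones made for that purpose, then builds proteins for chromosome condensation and the spindle in G2 and mitosis. At the end of mitosis the anaphase-promoting complex (APC), first with its activator Cdc20, marks cyclin B and other mitotic proteins for destruction. Many genes of late G2 and mitosis share a promoter element, the cell cycle genes homology region (CHR), bound by the MuvB complex with its partners, and CCAAT boxes bound by NF-Y.

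The promoters of 4 of the genes that lead KC_Five over Basal are shown because these genes define the cluster below. They come from RefSeq on GRCm38.p6, each from 180 bases before to 30 bases from the annotated start, and capitals mark the CHR letters TTTGAA or TTTAAA read on either strand. Cdc20, Cenpa and Ccnb2 were the top 3 genes by their ratio to Basal, and Cks2 is shown as a leading gene without these letters. The stretches lie at chr4:118437314-118437523 (minus strand), chr5:30666706-30666915 (plus), chr9:70421525-70421734 (minus) and chr13:51645052-51645261 (plus).
Cdc20: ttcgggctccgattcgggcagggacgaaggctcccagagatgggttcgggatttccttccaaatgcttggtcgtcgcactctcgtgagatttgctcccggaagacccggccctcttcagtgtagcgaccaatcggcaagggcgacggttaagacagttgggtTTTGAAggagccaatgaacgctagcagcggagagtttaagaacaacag
Cenpa: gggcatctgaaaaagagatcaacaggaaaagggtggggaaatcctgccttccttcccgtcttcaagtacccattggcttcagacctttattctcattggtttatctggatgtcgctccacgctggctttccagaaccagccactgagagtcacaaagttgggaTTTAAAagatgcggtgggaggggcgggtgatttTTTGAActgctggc
Ccnb2: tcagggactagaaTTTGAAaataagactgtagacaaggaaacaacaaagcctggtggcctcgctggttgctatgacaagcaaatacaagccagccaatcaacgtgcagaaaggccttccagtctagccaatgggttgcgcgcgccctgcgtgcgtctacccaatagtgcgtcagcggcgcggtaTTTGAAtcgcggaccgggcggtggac
Cks2: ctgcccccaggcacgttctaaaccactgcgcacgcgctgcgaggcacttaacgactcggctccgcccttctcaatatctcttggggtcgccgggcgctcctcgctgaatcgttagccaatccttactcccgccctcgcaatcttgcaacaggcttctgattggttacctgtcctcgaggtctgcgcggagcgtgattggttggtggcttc

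Nearly every leading gene with a promoter in the table held a CHR-like sequence in the stretch searched around its start. Of the 20 genes with the largest ratio to Basal, 18 had a promoter, and 16 of these held TTTGAA or TTTAAA between 250 bases before and 50 bases after the start, a share of 88.9%. Over all 27025 genes with a promoter the share was 27.8%. CCAAT on either strand was found in 15 of the 18 against 37.9% of all promoters. The S phase type of element, E2F-like letters (TTTGGCGC, TTTCCCGC, TTTGGCGG or TTTCGCGC), was found in 0 of the 18 against 2.42% of all. In Cdc20 the CHR letters began 18 bases before the start and in Cenpa 17 bases before it, with another match from base 17 after it. In Ccnb2 they began 167 bases before the start and again at base 5 after it. Not all matches were close: the only one began 220 bases before the start in Birc5, 111 in Cdkn3 and 101 in Ckap2. Among the 20 genes lowest in KC_Five against KC_Four, 12 had a promoter, 5 held the CHR letters (41.7%) and 9 held CCAAT (75%), so CCAAT was frequent in that set as well. Among the 20 lowest against Basal 1 of 14 held the CHR letters (7.14%) and 4 held CCAAT (28.6%). TTTAAA reads the same on both strands and can overlap TTTGAA, so an overlap counted as a match at each position. These are matches of letters, and binding was not measured.

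The cells of KC_Five were keratinocytes of the basal type by their keratins. Krt14 was present in 156 of 156 and 116 of 116 KC_Five cells, at 351 (95% counting interval 348 to 354) and 322 (319 to 325) UMIs per 10000. It stood at 396 and 379 in Basal and at 318 and 310 in KC_Four. Krt5, the partner of Krt14 in the same filaments, was at 162 and 159 UMIs per 10000 in KC_Five against 179 and 176 in Basal. All 12 basal keratinocyte markers passed the filter on low values and 0 of 12 differed from Basal past the fold used here. However, 12 of 12 were below Basal in both libraries (medians -0.32 and -0.37 on the log2 scale). Over all 7381 genes measured, 3003 were below Basal in both libraries, and 2.40% were past the fold higher and 0.420% lower. Here and below, values are given for the BMT library first and the BMT + T cells library second, and counting intervals and limits cover counting error only.

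Most defining markers of cell types other than keratinocytes were at or near 0 in the cluster. Of 10 leukocyte and Langerhans cell markers, 8 and 6 were at 0 UMIs in KC_Five, among them Ptprc, which encodes CD45, and Cd207, and the list summed to 3 and 5 UMIs. A sum of 0 for Ptprc allows up to 3 UMIs in a library. Melanocyte, endothelial and Merkel cell markers summed to 1 to 7 UMIs each. The T cell list summed to 236 and 148 UMIs, of which Thy1 held 186 and 135. Trbc2, a T cell receptor constant gene, had 49 UMIs in 30 of 156 cells and 12 UMIs in 12 of 116, and was at 0.308 and 0.0938 UMIs per 10000, a log2 ratio of -1.07 between the labels. It was also read in Basal, at 0.226 and 0.216. Cd3e, Cd3g, Cd4, Cd8a and Cd8b1 were at 0 in both libraries. The fibroblast list summed to 71 and 2 UMIs, and all 71 were Dcn in a single cell of the BMT library.

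KC_Five made up 5.50% of the BMT library (exact Clopper-Pearson interval 4.69 to 6.40%) and 4.48% (3.71 to 5.35%) of the BMT + T cells library. The intervals overlap. Its cells carried a median of 10243.5 and 10987.5 UMIs and 3075 and 3164.5 genes, above Basal (8053 and 8223.5 UMIs) and below KC_Four (15889 and 16877.5 UMIs). In all the cluster held 1591585 and 1279812 UMIs. Mitochondrial transcripts took a median of 1.83% and 1.57% of a cell's UMIs, and 0 KC_Five cells had over 20%. Of the cell barcodes, 2 occurred in both libraries, and 0 of them in KC_Five.

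By the authors' own phase calls, which score each cell for S and G2/M genes, 150 and 115 KC_Five cells were in G2M, 6 and 1 in S and 0 in G1. Their median G2M scores were 0.67 and 0.68, and their median S scores were 0.015 and 0.0019. KC_Four scored high on both, with medians of 0.85 and 0.86 for G2M and 0.47 and 0.43 for S. Basal medians were below 0 on both scores in both libraries. UMIs of the S phase and G2/M lists were also counted after every cell had been drawn down to 2500 UMIs. These counts read the same kind of genes in the same cells, so they are not independent of the scores. The cut of 10 UMIs was not part of the plan. Of the KC_Five cells, 147 (94.2%) and 112 (96.6%) held at least 10 UMIs of the 54 G2/M genes and fewer than 10 of the 43 S phase genes. Only 5 (3.21%) and 3 (2.59%) were at 10 or more for both lists, against 165 (73.3%) and 108 (72.0%) of KC_Four. A small number of Basal cells, 100 (5.94%) and 70 (4.09%), had the KC_Five combination. The plot of S phase against G2/M UMIs per cell shows this.

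**Figure D1:**
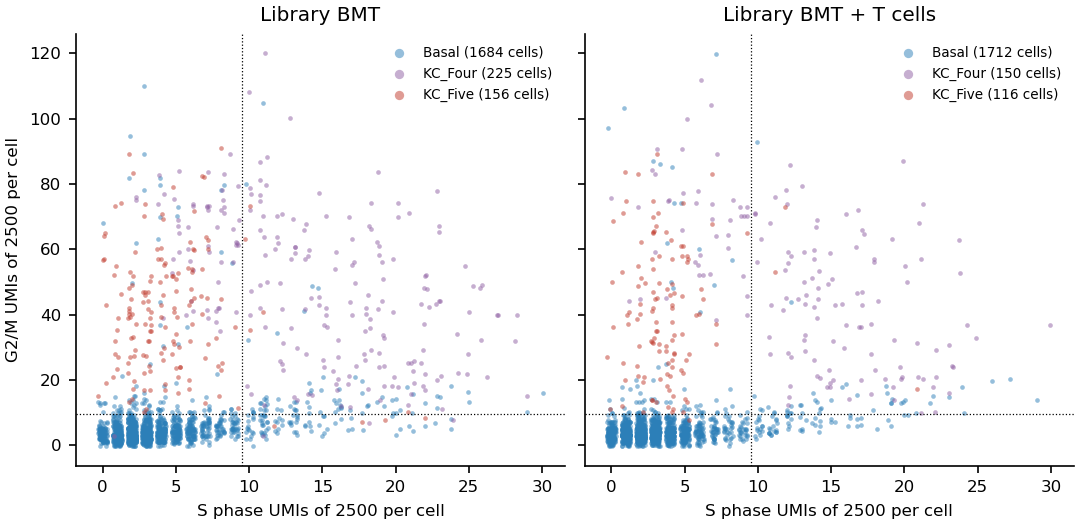
Each point is a cell drawn down to 2500 UMIs, with its UMIs of 43 S phase genes on the x axis and of 54 G2/M genes on the y axis, for the BMT library (left) and the BMT + T cells library (right). Points are shifted by under 1 UMI so that they do not hide each other, and dotted lines mark 10 UMIs. KC_Five cells (red) lie above the horizontal line and left of the vertical line in 147 and 112 cases, while most KC_Four cells (purple) lie to the right of it.

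Cells of KC_Five spread widely in how much mitotic RNA they carried. G2/M genes took a median of 1.57% and 1.64% of a cell's UMIs, from 0.293% to 3.70% in the BMT library and from 0.385% to 3.39% in the BMT + T cells library. The S phase list took 0.163% and 0.147%. In Basal the G2/M median was 0.158% and 0.149%, and in KC_Four 1.96% and 2.03%. The S phase list took 0.114% and 0.107% in Basal and 0.611% and 0.579% in KC_Four.

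Against Basal, KC_Five stood out by genes of mitosis. Of 7381 genes with a mean of at least 0.1 UMIs per 10000, 177 (2.40%) were higher by a log2 ratio over 1 in both libraries and 31 (0.420%) were lower. Ratios have 0.1 UMIs per 10000 added to each level, which understates the change of low genes. When levels were scaled without ribosomal protein, mitochondrial and keratin genes, 184 were higher and 64 lower. Of the 177, 89 (50.3%) were on at least 1 of the 11 cell cycle lists used here, which hold 214 genes, and 88 were on none of them. The medians over all 7381 genes were -0.01 and -0.03.

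Cdc20 led this comparison. The gene lies on chromosome 4 (118432901 to 118437343, minus strand, GRCm38) and encodes the activator that turns the APC on in mitosis. It was at 8.75 (8.29 to 9.22) and 8.63 (8.12 to 9.15) UMIs per 10000 in KC_Five, at 4.33 and 4.57 in KC_Four and at 0.412 and 0.301 in Basal. KC_Five was thus the highest of these clusters in both libraries, by 21.3-fold (19.3 to 23.4) and 28.7-fold (25.7 to 32.1) over Basal. Cdc20 UMIs were found in 151 of 156 and 111 of 116 KC_Five cells, and after thinning to equal depth in 78.8% and 79.3% of them, against 55.6% and 62.7% of KC_Four and 4.57% and 4.03% of Basal cells.

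Cenpa, the histone H3 variant that marks centromeres (chromosome 5, 30666877 to 30674837, plus strand), was at 11.1 and 10.3 UMIs per 10000 in KC_Five, 5.59 and 5.67 in KC_Four and 0.572 and 0.414 in Basal. Ccnb2, a B-type cyclin that activates Cdk1 for entry into mitosis (chromosome 9, 70407689 to 70421554, minus strand), was at 6.09 and 4.80 in KC_Five, 3.58 and 3.65 in KC_Four and 0.273 and 0.164 in Basal. The order of clusters was the same for both genes in both libraries, with KC_Five first. Cdkn3, a phosphatase that acts on CDKs, had this order too, at 4.57 and 4.09 UMIs per 10000 in KC_Five, 2.26 and 2.21 in KC_Four and 0.326 and 0.212 in Basal. The log2 ratios of these genes to Basal were 4.06 and 4.34 for Cenpa, 4.05 and 4.21 for Ccnb2, and 3.45 and 3.74 for Cdkn3.

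For the other leading genes KC_Five and KC_Four lay close to each other. Birc5, a subunit of the chromosomal passenger complex also known as survivin, was at 8.38 and 8.69 UMIs per 10000 in KC_Five, 10.1 and 10.5 in KC_Four and 0.628 and 0.426 in Basal. Cdca8, another subunit of that complex, was at 5.54 and 5.28 in KC_Five against 4.97 and 5.59 in KC_Four, so the order of these clusters changed between libraries. Ccnb1, the main mitotic cyclin, was at 4.13 and 3.72 in KC_Five and 3.65 and 3.95 in KC_Four, again with the order reversed. Cdca3, Hmmr and Racgap1, whose products act in mitotic entry, on the spindle and in cytokinesis, exceeded Basal by log2 ratios of 3.42 and 3.81, 3.25 and 3.47, and 3.19 and 3.48. All 10 leading genes were higher than Basal in both libraries by more than 3 on the log2 scale, as the plot of leading genes shows.

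**Figure D2:**
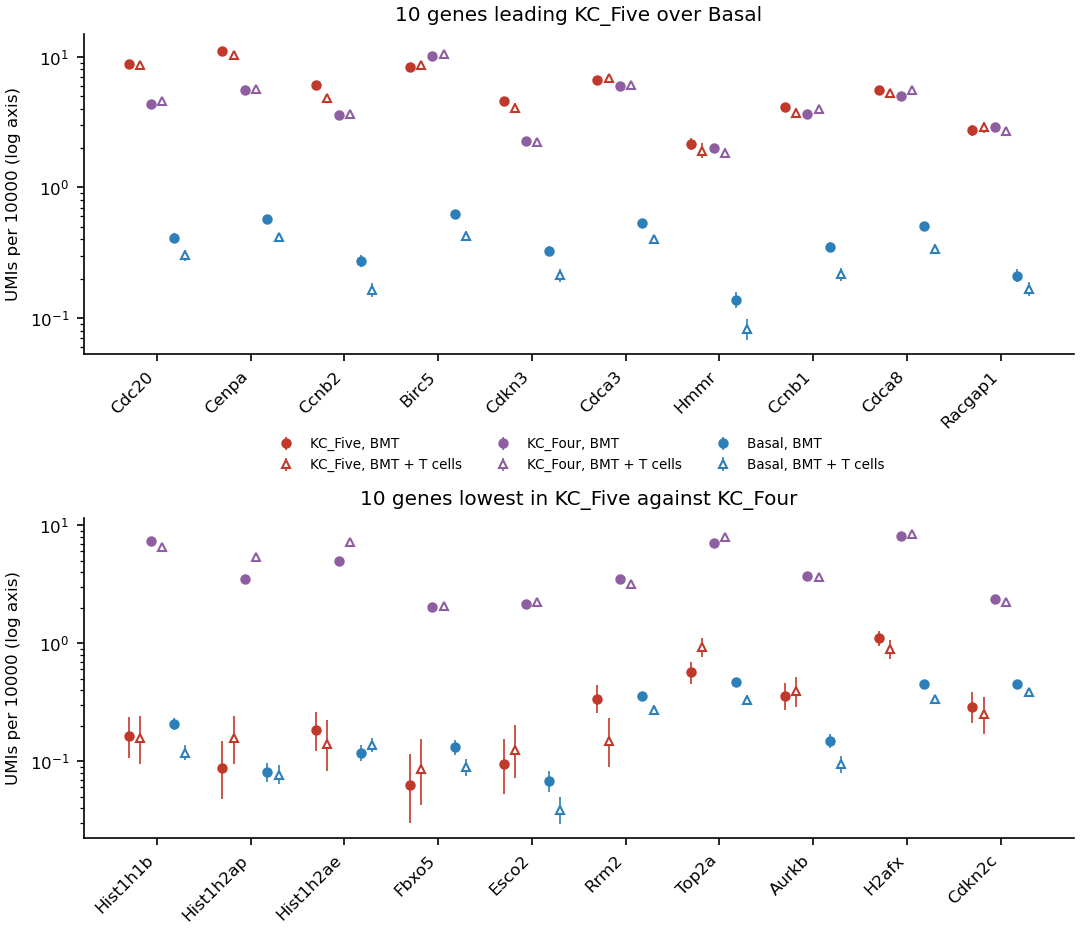
UMIs per 10000 (log axis) of the 10 genes that lead KC_Five over Basal (top) and of the 10 lowest in KC_Five against KC_Four (bottom), for KC_Five (red), KC_Four (purple) and Basal (blue), with filled circles for the BMT library and open triangles for BMT + T cells. Bars are exact 95% Poisson intervals. In the top panel KC_Five and KC_Four lie together far above Basal, with KC_Five first for Cdc20, Cenpa, Ccnb2 and Cdkn3, and in the bottom panel KC_Four lies far above both others, while KC_Five lies above Basal for H2afx (1.11 and 0.891 against 0.451 and 0.336) and Aurkb (0.358 and 0.391 against 0.149 and 0.0941).

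The lists of mitotic machinery moved with these genes. Of the 54 G2/M genes, 52 passed the filter on low values and 46 were past the fold higher than Basal, with 0 lower and medians of 2.11 and 2.34. For mitotic spindle and cytokinesis this was 19 of 20 (medians 2.46 and 2.69) and for centromere and kinetochore 20 of 25 (1.65 and 1.82). Of the spindle checkpoint and APC genes 8 of 12 were higher (1.75 and 1.97), among them Plk1, a mitotic kinase, at 1.41 and 1.42 UMIs per 10000 against 0.115 and 0.0743 in Basal. Condensin, cohesin and chromatin genes counted 10 of 17, led in level by Hmgb2, a DNA-bending protein of proliferating cells, at 20.7 and 22.2 UMIs per 10000 against 3.58 and 2.94. These lists share members and were chosen with earlier results on these cells known, and a list's members that passed the filter through KC_Five alone had to be higher there.

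Tubulins split in a way that set KC_Five apart from both neighbours. Tubb4b was at 28.1 and 29.1 UMIs per 10000 in KC_Five and at 25.7 and 26.9 in KC_Four, against 6.46 and 5.93 in Basal. Tubb5 was at 8.09 and 7.54 in KC_Five, near Basal (6.12 and 5.13) and well below KC_Four (41.7 and 44.3). Tuba1b took a middle place, with 8.25 and 7.87 in KC_Five, 21.7 and 22.3 in KC_Four and 4.11 and 3.23 in Basal. All encode building blocks of microtubules and are closely related genes, so reads shared between copies could move values among them. Stmn1, which destabilises microtubules, was at 16.1 and 17.7 in KC_Five, between KC_Four (29.6 and 31.6) and Basal (3.20 and 2.34).

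Summed over cells, genes of DNA replication stood near or below their Basal level and well below KC_Four. The Basal sums take in S phase cells, since the authors called 524 of 1684 and 452 of 1712 Basal cells S. By the median cell, given above, the S phase list took a larger share of UMIs in KC_Five than in Basal. Summed over the 43 S phase genes, KC_Five held 18.3 (17.7 to 19.0) and 15.6 (15.0 to 16.3) UMIs per 10000. Basal held 18.9 and 15.9, within those intervals, and KC_Four 55.5 and 52.7. Of 30 S phase genes that passed the filter, 21 were below Basal in both libraries (medians -0.23 and -0.31), against 3003 of all 7381 genes. Only 1 of the 30 was past the fold. This was Rrm1, the large subunit of ribonucleotide reductase, at 1.89 and 1.89 in KC_Five against 0.773 and 0.616 in Basal. Its partner Rrm2, the subunit whose level follows S phase, was at 0.339 and 0.148 in KC_Five, 0.354 and 0.272 in Basal and 3.48 and 3.18 in KC_Four. The replication licensing and fork list summed to 12.6 (12.1 to 13.2) and 10.5 (9.94 to 11.1) in KC_Five, below the 15.7 and 13.4 of Basal. Of its 26 genes that passed, 19 were below Basal in both libraries, with medians of -0.28 and -0.33. Past the fold were 0 of the 26, near the share of all genes (2.40% higher and 0.420% lower). Pcna, the sliding clamp of DNA polymerase, was lower in KC_Five (0.785 and 0.649) than in Basal (1.49 and 1.20), with log2 ratios of -0.84 and -0.80, and stood at 4.57 and 3.99 in KC_Four.

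Of 31 genes lower than in Basal, Ypel3, a gene linked to growth arrest, led with 0.314 and 0.336 UMIs per 10000 in KC_Five against 1.32 and 1.40 in Basal, while KC_Four was between at 0.770 and 0.833. Ccl27a, a chemokine of keratinocytes that draws T cells into skin, was at 0.773 and 0.508 against 2.96 and 1.70. KC_Four had 0.874 and 0.500, so for Ccl27a the cycling clusters lay together. Ccnd2, a cyclin of G1, was at 1.78 and 1.58 against 4.17 and 4.75 in Basal and 0.869 and 1.10 in KC_Four. The nuclear noncoding RNA Malat1 was at 26.2 and 28.8 against 64.9 and 73.5. The other genes that lead this direction, Ahnak2, Gdpd2, Frg1, Abcg1 and Thbs1, had log2 ratios between -1.03 and -1.55, and 2410006H16Rik missed the fold in the BMT + T cells library at -0.99.

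Against KC_Four, KC_Five differed mainly by what it lacked. Of 7244 genes with enough UMIs, 153 (2.11%) were lower in KC_Five in both libraries and 19 (0.262%) were higher. The medians over all genes were 0.05 and 0.04. Of the 153, 69 (45.1%) were on the cell cycle lists, and of the 19 higher genes 0 were. KC_Four cells held more UMIs than KC_Five cells in both libraries, and thinning every cell to 2500 UMIs raised the higher genes to 43.

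The genes furthest below KC_Four were histones made in S phase. Hist1h1b, a linker histone, was at 0.163 and 0.156 UMIs per 10000 in KC_Five, at 7.40 and 6.54 in KC_Four and at 0.207 and 0.118 in Basal. Hist1h2ap and Hist1h2ae, which encode H2A, had log2 ratios to KC_Four of -4.26 and -4.41, and of -4.17 and -4.93. The list of replication-dependent histones, 63 genes taken by their Hist symbols alone, was drawn up after the values were seen. Of these, 24 passed the filter, 15 were past the fold lower and 0 higher. Members that passed the filter through KC_Four alone had to be lower in KC_Five, and only 10 passed it against Basal. Of the 24, 23 were below KC_Four in both libraries, against 2237 of all 7244 genes. The exception was Hist1h2bc, at 2.46 and 2.85 in KC_Five and 2.17 and 2.30 in KC_Four against 0.700 and 0.526 in Basal. Hist1h4i, at 1.06 and 0.860, was below KC_Four (1.60 and 1.34) and past the fold higher than Basal (0.270 and 0.214). Copies in the histone clusters are near identical, so reads may have been split among them, and values of single genes are uncertain.

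Top2a, the topoisomerase that untangles chromosomes before they part and a usual marker of cycling cells, was at 0.565 (0.455 to 0.695) and 0.930 (0.770 to 1.11) UMIs per 10000 in KC_Five. It stood at 7.03 and 7.94 in KC_Four and at 0.467 and 0.333 in Basal. Cdk1, the kinase that B-type cyclins activate, was at 1.30 and 1.17 in KC_Five, 8.01 and 7.61 in KC_Four and 0.526 and 0.324 in Basal. Thus the cyclins Ccnb1 and Ccnb2 were at or above their KC_Four level in the BMT library while the RNA of their kinase was lower by a log2 ratio of -2.53 there and -2.60 in the other library. Aurkb, the kinase of the passenger complex, was at 0.358 and 0.391 against 3.69 and 3.64 in KC_Four, although Birc5 and Cdca8 of the same complex differed little. Fbxo5, the APC inhibitor that acts before mitosis, was at 0.0628 and 0.0860 against 2.05 and 2.06. Esco2, which joins sister chromatids during S phase, was at 0.0942 and 0.125 against 2.16 and 2.25. H2afx and Cdkn2c were lower by log2 ratios of -2.76 and -3.10, and of -2.66 and -2.73. Mki67, by contrast, was at 4.59 and 5.61 in KC_Five against 6.47 and 6.54 in KC_Four and 0.658 and 0.508 in Basal.

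Single cells showed the same split. At 2500 UMIs a cell, 111 of 156 and 76 of 116 KC_Five cells held Cdc20 and no Top2a, 12 and 16 held both, 7 and 2 held Top2a alone, and 26 and 22 held neither. In KC_Four 101 of 225 and 71 of 150 cells held both, and 24 and 23 held Cdc20 alone. Cdc20 and Cenpa were found together in 113 and 87 KC_Five cells and in 93 and 65 KC_Four cells. Absence at this depth does not show that a cell lacked the transcript, since unthinned Top2a was found in 35.9% and 47.4% of KC_Five cells and 97.3% and 94.0% of KC_Four cells.

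**Figure D3:**
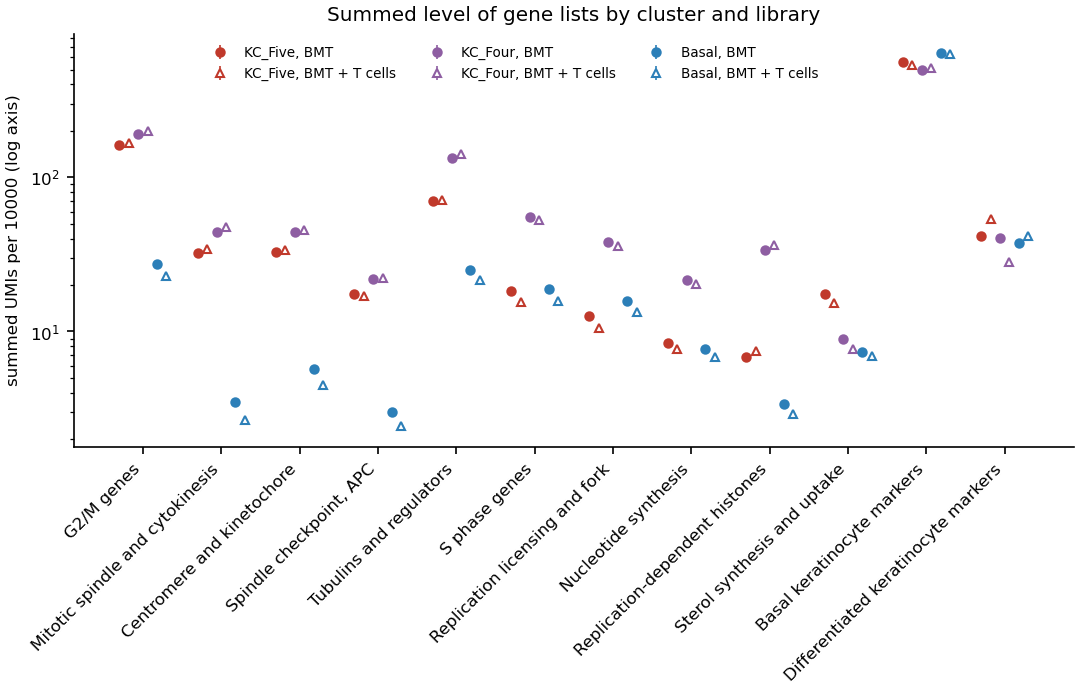
Summed UMIs per 10000 (log axis) of 12 gene lists in KC_Five (red), KC_Four (purple) and Basal (blue), with filled circles for the BMT library, open triangles for BMT + T cells, and exact 95% Poisson bars, mostly smaller than the marks. KC_Five lies near KC_Four for the G2/M genes (161 and 166 against 190 and 198), near Basal for the S phase genes, and above both for sterol synthesis and uptake.

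Cyclins and their inhibitors gave a picture gene by gene. Of 13 cyclins and CDKs, 10 passed the filter against Basal. Ccna2, Ccnb1, Ccnb2 and Cdk1 were past the fold higher and Ccnd2 lower. Ccna2, the cyclin of S phase and G2, was at 1.30 and 1.46 UMIs per 10000 in KC_Five, 2.02 and 1.67 in KC_Four and 0.139 and 0.104 in Basal. The G1/S cyclins Ccne1 and Ccne2 had 3 and 0, and 2 and 0 UMIs in the whole of KC_Five, against 0.513 and 0.435, and 0.226 and 0.260 UMIs per 10000 in KC_Four. Ccnf was at 0.195 and 0.156 against 0.696 and 0.630 in KC_Four, and Cdk2 at 0.151 and 0.0938 against 0.527 and 0.605. Ccnd1, Cdk4 and Cdk6 lay below Basal by log2 ratios of -0.45 to -1.40 and were not past the fold in both libraries, and Ccnd3 did not pass the filter.

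Among 8 CDK inhibitors, Cdkn3 and Cdkn2d were past the fold higher than Basal. Cdkn2d (p19 of the INK4 family) was at 0.867 and 0.844 in KC_Five, 4.61 and 4.76 in KC_Four and 0.321 and 0.262 in Basal. The p53 target Cdkn1a (p21) did not differ past the fold, at 1.18 and 1.23 in KC_Five, 1.78 and 1.84 in KC_Four and 1.46 and 1.42 in Basal. Cdkn1b (p27) was at 0.660 and 0.719 against 0.494 and 0.482 in Basal and 0.770 and 0.825 in KC_Four. Cdkn1c had 18 and 17 UMIs, Cdkn2b 9 and 2, and Cdkn2a 1 and 0 in KC_Five.

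What KC_Five held above KC_Four was led by enzymes of sterol synthesis. Msmo1, a methylsterol oxidase of the cholesterol pathway, was at 1.58 (1.39 to 1.78) and 1.16 (0.978 to 1.36) UMIs per 10000 in KC_Five, at 0.468 and 0.292 in KC_Four and at 0.382 and 0.345 in Basal. Hmgcs1, an early enzyme of the pathway, was at 3.64 and 3.54 in KC_Five, 1.53 and 1.59 in KC_Four and 1.89 and 1.94 in Basal. Idi1, which isomerises the building block of isoprenoids, was at 1.40 and 1.20 in KC_Five, 0.680 and 0.479 in KC_Four and 0.487 and 0.392 in Basal. Unlike Msmo1 and Hmgcs1, Idi1 was not past the fold over KC_Four in both libraries. In each case KC_Five was the highest of these clusters in both libraries.

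Because of these genes a list of 20 sterol synthesis and uptake genes was drawn up after the values were seen, so its count is a description only. Of 17 that passed the filter, 5 were past the fold higher than KC_Four (Cyp51, Hmgcs1, Insig1, Msmo1 and Sqle) and 0 lower. Above KC_Four in both libraries were 16 of the 17, against 3051 of all 7244 genes. Against Basal 8 of 17 were higher and 0 lower, with medians of 1.00 and 1.13. The list summed to 17.6 and 15.4 UMIs per 10000 in KC_Five, 8.93 and 7.68 in KC_Four and 7.32 and 6.96 in Basal. Sqle, the squalene oxidase, was at 0.804 and 0.672 against 0.257 and 0.134 in KC_Four. Insig1, which holds back the activation of sterol genes, was at 0.584 and 0.625 against 0.135 and 0.122. Levels are low, from 80 to 580 UMIs in a library for these genes, and the plot of sterol genes carries the counting intervals.

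**Figure D4:**
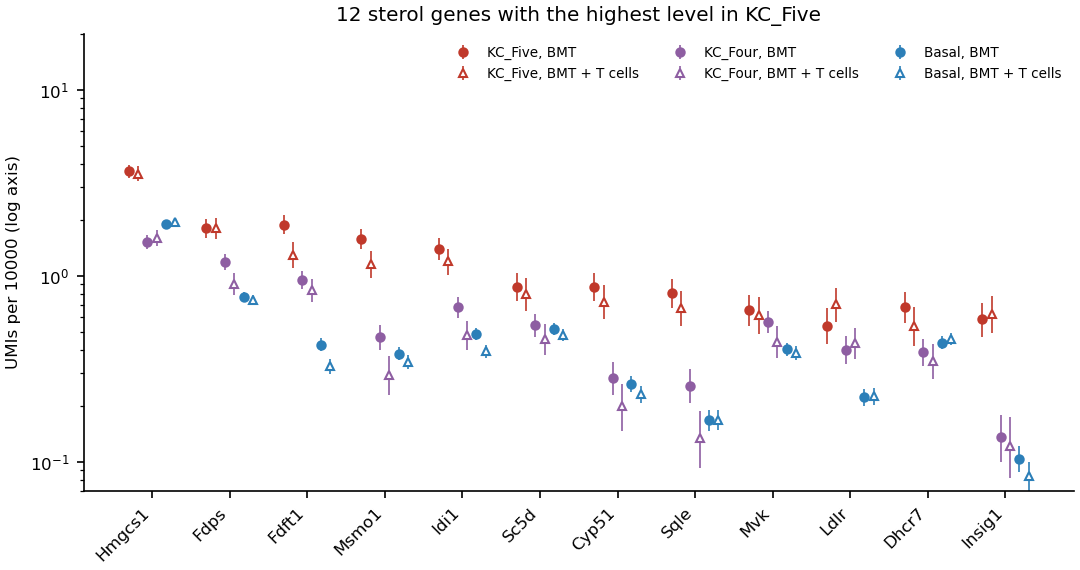
UMIs per 10000 (log axis) of the 12 sterol synthesis and uptake genes with the highest level in KC_Five, for KC_Five (red), KC_Four (purple) and Basal (blue), with filled circles for the BMT library, open triangles for BMT + T cells and exact 95% Poisson bars. KC_Five is the highest of these clusters for each gene in both libraries, by the smallest margin for Mvk in the BMT library and for Dhcr7 in the other. The choice by level in KC_Five, from a list drawn up after the values were seen, favours this order. Among all 17 genes that passed the filter, 1 was below KC_Four and 1 below Basal in both libraries.

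The remaining genes that led KC_Five over KC_Four had no common list. Gadd45b, a stress-induced regulator, was at 1.08 and 1.05 UMIs per 10000 in KC_Five against 0.302 and 0.313 in KC_Four and 0.624 and 0.613 in Basal. Serpinb8, a protease inhibitor, was at 1.55 and 1.73 in KC_Five against 0.592 and 0.662 in KC_Four and 0.436 and 0.418 in Basal. Mpp1, a membrane scaffold protein, was at 1.57 and 1.31 in KC_Five against 0.623 and 0.605 in KC_Four and 0.491 and 0.509 in Basal. Tsc22d3, a target of glucocorticoids also called Gilz, was at 1.36 and 1.42 against 0.615 and 0.528 in KC_Four. Mir205hg, the host transcript of a miRNA of epithelial cells, was at 2.13 and 2.33 against 0.759 and 0.808, and so stood near Basal (2.58 and 2.63). Fgfbp1, a carrier of fibroblast growth factors, reached 1.14 in the BMT library and 0.91 in the BMT + T cells library, short of the fold in the latter. Cdc20, Cdkn3 and Cenpa came next, at 1.00 and 0.90, 0.98 and 0.86, and 0.97 and 0.85, none of them past it in both libraries.

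Few differentiation, stem cell or stress genes were past the fold against either neighbour, which held for all genes too. Over all genes 2.40% were higher and 0.420% lower against Basal, and 0.262% and 2.11% against KC_Four. Counts of 0 in lists this short are therefore near the share of all genes. Below Basal in both libraries were 3003 of 7381 genes, and above KC_Four 3051 of 7244. Of 8 differentiated keratinocyte markers that passed, 0 were past the fold in both libraries against Basal or KC_Four, and 6 of 8 were above KC_Four in both, with medians of 0.13 and 0.74. Their sum was 41.4 and 53.5 UMIs per 10000 in KC_Five, 40.2 and 28.3 in KC_Four and 37.3 and 41.5 in Basal. By the median cell the list took 0.233% and 0.203% of UMIs in KC_Five, below KC_Four (0.244% and 0.208%) and Basal (0.261% and 0.250%). In the BMT + T cells library the 5 highest KC_Five cells held 83.3% of Mt4 and 59.9% of Krt10. Of 7 epidermal stem and progenitor genes, 0 were past it in either comparison, and 6 of 7 were below Basal in both libraries, among them Krt15, at 31.1 and 38.6 UMIs per 10000 against 45.1 and 48.5. Of 11 p53 targets 0 were past the fold against Basal, and the same held for 12 ribosome biogenesis genes. Of 13 immediate early genes 10 were below Basal in both libraries, with medians of -0.59 and -0.77. Among them 1 was past the fold, Dusp1, which inactivates MAP kinases, at 0.163 and 0.281 against 0.465 and 1.05. Btg2, an antiproliferative gene, was higher than KC_Four, at 0.547 and 0.445 against 0.169 and 0.167.

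Factors that Langerhans cells and their precursors meet in the epidermis were compared among KC_Five, KC_Four and Basal. The paper places Epcam in upper hair follicle cells and Il34 in differentiated cells, and those clusters were not part of this comparison. Of the 15 factors, 10 passed the filter. Past the fold against Basal were 0, near the share of all genes (2.40% higher and 0.420% lower). Il34, the keratinocyte ligand of the CSF1 receptor, was at 0.647 and 0.531 UMIs per 10000 in KC_Five, 0.485 and 0.520 in KC_Four and 0.919 and 1.01 in Basal. Tgfb1, which Langerhans cells need, was at 0.251 and 0.258 in KC_Five, past the fold below KC_Four (0.626 and 0.687) and near Basal (0.347 and 0.357). Epcam, an adhesion molecule, was at 1.44 and 0.953 in KC_Five, 0.928 and 0.695 in KC_Four and 0.704 and 0.480 in Basal. The growth factor Ptn was at 6.42 and 6.40 against 3.41 and 3.16 in Basal, a log2 ratio of 0.90 and 1.00. The Notch ligands Jag1 and Jag2 were at 0.540 and 0.625, and at 0.760 and 0.836, all below Basal (0.821 and 0.857, and 1.36 and 1.61). Apoe was at 7.67 and 9.00, Cxcl14 at 6.10 and 3.91, and Bmp7 at 0.145 and 0.172. Ccl20, a chemokine that draws Langerhans cell precursors, was at 0.220 and 0.0391 in KC_Five, 0.141 and 0.0162 in KC_Four and 0.184 and 0.172 in Basal. It was past the fold lower in KC_Five under the BMT + T cells label (log2 ratio -1.20), on 35 UMIs in 5 cells, of which 1 held 23, against 5 UMIs in 2 cells. Ccl20 passed the filter only through the BMT library, so it had to be lower in the other. Csf1, Tgfb2 and Itgb6 had 2 to 11 UMIs in a library, and Ccl2 and Itgb8 had 0, which allows up to 3.

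Between the labels, the KC_Five cells of the BMT + T cells library carried more RNA for antigen presentation. Of 7186 genes with enough UMIs, 3374 had a log2 ratio above 0 and 3812 below it, with a median over all genes of -0.02. By a log2 ratio over 1, 23 (0.320%) were higher and 12 (0.167%) were lower. These counts depended on the processing, with 158 higher and 172 lower after thinning to 2500 UMIs, and 3 higher and 2 lower with a pseudocount of 1. Cd74, the invariant chain that guides MHC class II molecules, was at 0.421 UMIs per 10000 in the BMT library and 2.05 in the BMT + T cells library. B2m, the shared light chain of MHC class I, was at 1.40 and 3.45. Tap1, a peptide transporter for class I loading, was at 0.710 and 1.53. Psmb9, a subunit of the immunoproteasome, was at 1.26 and 2.32, a log2 ratio of 0.84 that is not past the fold.

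Of the class II genes, 5 passed the filter and all 5 were past the fold, with a median log2 ratio of 1.58. H2-Ab1, H2-Aa and H2-DMa had 15, 11 and 7 UMIs in the BMT library, under 0.1 UMIs per 10000, so they passed only through the library where they were high and had to be higher there. H2-Ab1 was at 0.0942 and 0.930 and H2-Eb1 at 0.276 and 1.02 UMIs per 10000, both encoding class II beta chains. Their UMIs came from few cells: 12 of 156 and 26 of 116 KC_Five cells held Cd74, and the 5 highest cells held 82.1% and 78.2% of it. Without the highest cell of each library, a setting added after the values were seen, the Cd74 ratio went from 2.04 to 1.89. B2m was in 92 and 109 cells. Markers of leukocytes, which make class II in quantity, summed to 3 and 5 UMIs in KC_Five as given above, and their part in the result was not tested.

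Of 15 class I genes that passed the filter, 3 were past the fold (B2m, H2-Q7 and Tap1) and 15 of 15 were above 0, with a median of 0.70. The list summed to 40.5 (39.6 to 41.5) UMIs per 10000 in the BMT library and 66.0 (64.6 to 67.5) in the BMT + T cells library. KC_Four went from 32.8 to 57.4 and Basal from 35.2 to 61.5, so a higher level in the BMT + T cells library was shared by these clusters. The classical class I heavy chains H2-D1 and H2-K1 had log2 ratios of 0.73 and 0.79 in KC_Five, short of the fold. Class I genes are close relatives and their reads may have been split among copies.

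Most interferon-inducible genes that passed the filter were also higher in the BMT + T cells library. Ifi27l2a was at 5.11 and 15.3 UMIs per 10000 in KC_Five, 1.95 and 7.58 in KC_Four and 2.35 and 7.61 in Basal, and KC_Five was the highest in each library. Of 7 interferon-gamma genes that passed, 6 were above 0 and 1 below it (-0.11), with a median of 0.80, and Cxcl9 and Iigp1 were past the fold. Iigp1, an immunity GTPase, was at 0.289 and 0.867 in KC_Five, with 46 and 111 UMIs in 13 and 37 cells. Cxcl9, a chemokine for T cells, rested on 12 UMIs in 2 cells and 40 UMIs in 4 cells. Its 12 UMIs in the BMT library were under 0.1 UMIs per 10000. Cxcl9 thus passed the filter only through the other library and had to be higher there. The list medians were 1.78 in KC_Four and 1.26 in Basal, and whether they differ from that of KC_Five was not tested. Ly6e was at 1.19 and 2.70.

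Some genes of differentiation and of stressed epidermis also differed between the labels, and several of them rested on few cells. Sprr2a3, a cornified envelope precursor, was at 2.58 UMIs per 10000 in the BMT library and 0.141 in the BMT + T cells library, with 411 UMIs in 55 cells, of which the highest held 10.2%, against 18 UMIs in 4 cells. KC_Four had 2.93 and 0.102 and Basal 1.91 and 0.411, so it was lower in the BMT + T cells library in each of these clusters. Krt17, a keratin of follicles and of activated epidermis, was at 1.88 and 0.313, and 1 cell held 168 of the 300 UMIs in the BMT library. Without the highest cell of each library its log2 ratio went from -2.27 to -1.51. Stfa3 and Cstdc5, protease inhibitors of the stefin A cluster, were at 1.27 and 0.438, and 1.39 and 0.547. Stfa3 was spread over 65 of 156 and 32 of 116 cells, and the highest cell of the BMT library held 9.41% of its UMIs there. Mt4, a metallothionein of differentiating epithelium, was at 2.43 and 6.38, and Krt10, the suprabasal keratin, at 7.19 and 12.8. The 5 highest of 116 cells held 83.3% of Mt4 and 59.9% of Krt10 in the BMT + T cells library. Members of the Sprr2 and stefin families are near copies, and their values are uncertain. The other genes named by the same rule were all below the fold: Slc27a3, Postn, Nudt19, Cxcl14, mt-Nd6 and Mrpl48 had log2 ratios from -0.57 to -0.83.

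**Figure D5:**
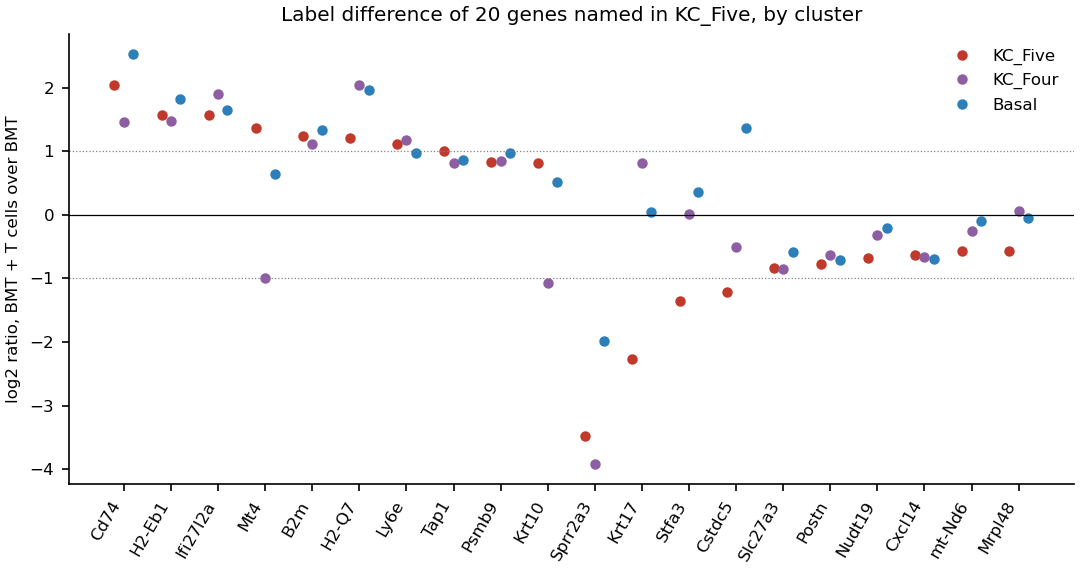
Log2 ratio of the BMT + T cells library over the BMT library for the 10 genes highest and the 10 lowest by this ratio in KC_Five, shown for KC_Five (red), KC_Four (purple) and Basal (blue). Dotted lines mark a log2 ratio of 1 in either direction, and there is 1 library for each label, so no error is drawn. Cd74, H2-Eb1, Ifi27l2a, B2m and H2-Q7 lie above 1 in all of these clusters, whereas Krt17, Stfa3 and Cstdc5 are low in KC_Five and higher in Basal.

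The cell cycle program of KC_Five differed little between the labels. Over all genes 0.320% were past the fold higher and 0.167% lower, so counts of 0 in these lists are near that share. Of 53 G2/M genes that passed the filter, 0 were past the fold, with a median of 0.06 and a range of -0.38 to 0.63. Of 30 S phase genes 0 were past the fold, with a median of -0.19 and 27 of 30 below 0, against 3812 of all 7186 genes. Cdc20 differed by -0.02 and Cenpa by -0.10. For sterol synthesis and uptake 0 of 18 genes were past it, with a median of -0.22.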

How the data were processed

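RNA of CD45-negative epidermal cells was counted by 5′ droplet sequencing in 2 keratinocyte libraries. The authors made the tables with kallisto, bustools and Seurat, on GRCm38 per the submitters' processing notes, dropped cells with under 500 genes or over 20% mitochondrial RNA, removed likely doublets with DoubletFinder, and clustered with the Leiden algorithm; doublets were not looked for again. Expression was deposited on a natural log (ln) scale, as the log of 1 plus the UMIs per 10000 of each cell. All of 15311900 values above 0 gave whole UMIs within 0.001 after the log was undone. The mitochondrial column was deposited in percent, and S and G2M were deposited as a score per cell. 

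UMIs were summed per cluster and library over 26383 genes and divided by the total. Log2 ratios used a pseudocount of 0.1 UMIs per 10000, a mean of at least 0.1, and a log2 ratio over 1 in each library. The genes named were the 10 highest and 10 lowest by the smaller ratio of the libraries, at 1 or more UMIs per 10000 in the higher cluster, up to 4 members of each list by level, and all cyclins, CDK inhibitors and niche factors. Members, lists and rules were chosen with earlier results of these data known. Intervals (95%) were exact, Poisson or Clopper-Pearson. Thinning to 2500 UMIs left out 0 cells. The ratio rule was run on simulated counts with counting error only, which leave out differences between cells and between libraries. Alternatives were another averaging, pseudocount, filter, scaling and depth. The donor and host myeloid tables were not used here. Tools were matplotlib 3.10.9, pandas 2.3.3, SciPy 1.17.1 and NumPy 2.4.6 under Python 3.11.15. A gene of the sterol list is not reported here and was left out of its counts and sums.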

Additional observations from a re-analysis of the deposited data

Results flagged for a closer look

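Cstdc5, a gene of the stefin A cluster, moved in opposite directions between the labels in KC_Five and in Basal. In KC_Five it was lower under the BMT + T cells label, with a log2 ratio of -1.21, with 222 UMIs in 35 cells of the BMT library and 70 UMIs in 26 cells of the other. In Basal it was higher there, at 0.777 and 2.17 UMIs per 10000, on 1153 UMIs in 237 cells and 3292 UMIs in 223 cells. In the BMT + T cells library 1 Basal cell held 587 of the 3292 UMIs and the 5 highest held 46.3%. In the BMT library 1 KC_Five cell held 56 of the 222 UMIs, and without the highest cell of each library the ratio was -0.97. The difference between the clusters was not tested.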

How the results depend on the processing

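Of 424 gene values recomputed for the named genes, 283 stayed within the counting interval and 141 moved outside it. Reversal of sign was looked for only in genes past the fold, and 0 of those values reversed. These genes had been picked for large ratios, so a reversal was unlikely from the start. Of 58 recomputed counts and shares, 27 stayed within 1.5 times the reported value or within its interval. The counts of genes past the fold depended on how low values were treated. With a pseudocount of 1, 39 genes were higher and 2 lower against Basal, 0 higher and 32 lower against KC_Four, and 3 higher and 2 lower between the labels. With a pseudocount of 0.01, 121 were lower against Basal, 46 higher and 249 lower against KC_Four, and 79 higher and 55 lower between the labels. A mean of at least 1 UMI per 10000 left 50 and 4, 5 and 54, and 6 and 2. Thinning to 2500 UMIs gave 59 lower against Basal, 43 higher against KC_Four, and 158 higher and 172 lower between the labels, and scaling without ribosomal protein, mitochondrial and keratin genes gave 64 lower against Basal. A log2 ratio over 2, chosen after seeing the data, left 49 higher and 1 lower against Basal and 0 and 33 against KC_Four. These settings differ from the reported one only in the named step, and the cause of each change was not tested further. Of Basal, KC_Four and KC_Five cells together, KC_Five was 7.55% in the BMT library and 5.86% in the BMT + T cells library. After thinning, the median share of G2/M UMIs was 1.60% in both libraries and that of S phase UMIs 0.120% in the BMT + T cells library. With 116 to 156 cells a library, a gene at 0.1 UMIs per 10000 rested on about 13 to 16 UMIs, so label differences of low genes were not separable from the few cells that held them. No paired analysis was possible because each label had 1 library.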
